A study of Homo sapiens with 8 samples.

Results

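SUM159 is an established line of triple-negative breast cancer. Its cells were sequenced one by one after long passage under drug, and a subset of the culture that received JQ1 and paclitaxel together carried transcripts of FABP4, a fatty acid-binding protein best known from fat cells. These FABP4 cells were chosen by their own FABP4 count: a cell of the JQ1+paclitaxel library was included when it held 2 or more FABP4 UMIs (unique molecular identifiers, each standing for 1 captured transcript). There were 144 such cells among the 643 of the library and the 5738 of the series. They were set against the 410 cells of the same library with 0 FABP4 UMIs, called zero cells here, and 89 cells with a single UMI were kept apart. FABP4 itself was left out of every ratio below.

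All cells carried a lentiviral barcode library (ClonTracer). JQ1, which displaces BET proteins from chromatin, was given at 100 nM. Paclitaxel, which stabilises microtubules, was given at 0.6 nM. Palbociclib, an inhibitor of CDK4 and CDK6, was given at 160 nM. Besides JQ1+paclitaxel the libraries were pre-treatment, DMSO, paclitaxel, palbociclib, JQ1+palbociclib and JQ1 alone, the last in both experiments of the series (JQ1-A beside JQ1+paclitaxel, DMSO and paclitaxel, and JQ1-B beside palbociclib and JQ1+palbociclib). Each library mixed equal numbers of cells from triplicate cultures, and a JQ1+palbociclib culture had been lost before that. FABP4 cells that arose in 1 culture and FABP4 cells present in all of them could not be told apart. There was 1 JQ1+paclitaxel library, so differences between its cells had no replicate. They are given as values with intervals that cover counting error only.

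FABP4 binds fatty acids in the cytoplasm of adipocytes, macrophages and some endothelial cells, and its gene is a classical target of the nuclear receptor PPARγ. Other targets of the PPAR receptors act in fatty acid uptake, in storage in lipid droplets, and in the switch of mitochondria from glucose to fat, where PDK4 restrains the entry of pyruvate. On the GRCh37 build FABP4 lies at chr8:82390654-82395471 on the minus strand, on the same chromosome as its relative FABP5 (chr8:82192771-82197012, plus strand).

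FABP4 transcripts were rare in every library without JQ1 or palbociclib. Over all cells of a library, FABP4 stood at 0.993 CPM (UMIs of the gene scaled to a common library total) in pre-treatment, 2.17 in DMSO and 1.87 in paclitaxel. The 4 libraries with JQ1 alone or with palbociclib followed, JQ1-B at 8.92, JQ1-A at 9.27, palbociclib at 12.1 and JQ1+palbociclib at 27.7 CPM. JQ1+paclitaxel reached 231 CPM (95% interval 223 to 239). Counting intervals overlapped between pre-treatment and paclitaxel, between paclitaxel and DMSO, between JQ1-B and JQ1-A, and between JQ1-A and palbociclib, so these pairs were not separated. The intervals of the other neighbours in that order did not overlap. All of them cover counting error only, and each level comes from 1 library. FABP4 UMIs also sat in few cells, and 1 pre-treatment cell held 7 of the 14 there. Differences between libraries were not tested. FABP4 chose the cells, so these levels are a description.

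In JQ1+paclitaxel, FABP4 cells made up 22.4% of the library (exact 95% interval 19.2 to 25.8), against 0.498% in pre-treatment, 0.871% in DMSO, 0.798% in paclitaxel and 3.16% in JQ1-A of the same experiment. The shares were 3.8% in JQ1-B, 5.63% in palbociclib and 11.5% in JQ1+palbociclib. With every cell thinned to 10000 UMIs, JQ1+paclitaxel held 16.2% and JQ1+palbociclib 4.51%, while each of the remaining libraries held 1.82% or less. The culture holds a single cell line, so no cell type known to lack FABP4 was at hand from which to read the share that free RNA alone would give.

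**Figure D1:**
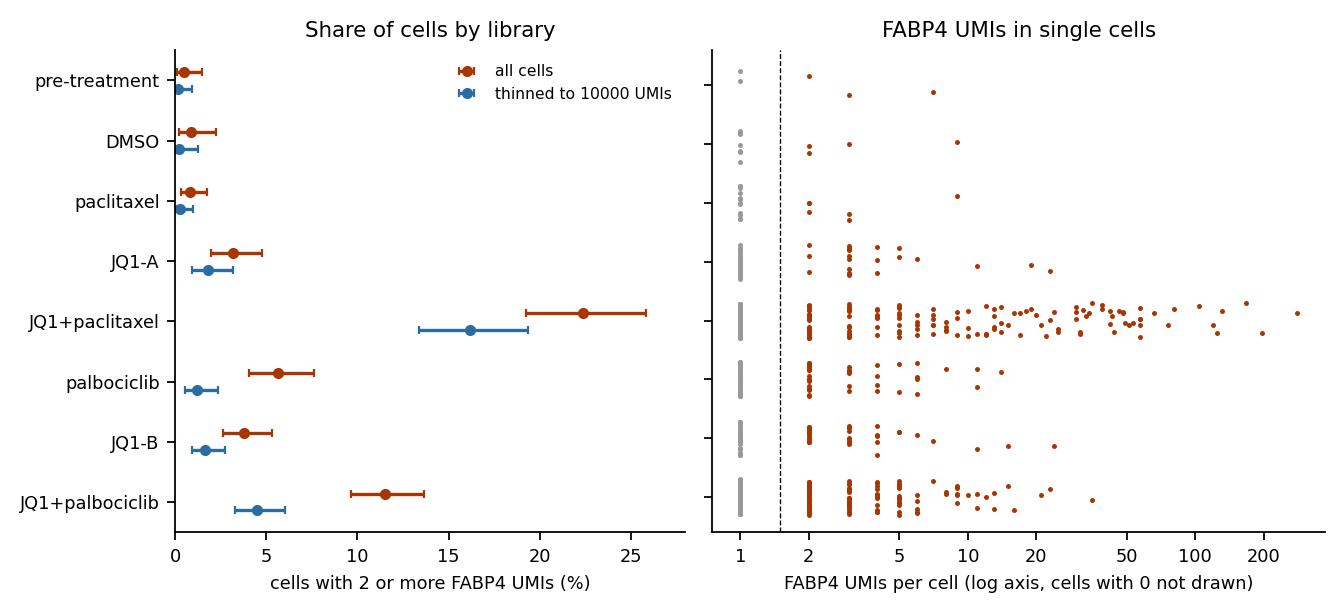
Left, percent of cells with 2 or more FABP4 UMIs in each of the 8 libraries, for all cells and for cells thinned to 10000 UMIs, with exact 95% binomial intervals; right, FABP4 UMIs of each cell with at least 1, on a log axis, with cells inside the rule in red. JQ1+paclitaxel stands at 22.4% and is the only library of these 8 with cells above 35 FABP4 UMIs.

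FABP4 counts within the group were very uneven. The median FABP4 cell held 7 UMIs, the highest 280 and the next 197. By class, 52 cells held 2 to 4 UMIs, 28 held 5 to 9, 21 held 10 to 19, and 43 held 20 or more. The 20 highest cells carried 58.3% of the 3227 FABP4 UMIs of the group. At the threshold itself, 26 cells with exactly 2 UMIs were just inside and the 89 cells with 1 UMI just outside. In JQ1-A, by contrast, the highest cell held 23 FABP4 UMIs and 1 cell reached 20.

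FABP4 cells were somewhat deeper than zero cells. The median cell held 22852 UMIs against 20026 in zero cells and 20701 in cells with 1 UMI. Divided into 5 equal parts by UMIs, the library held 12.4% FABP4 cells in its shallowest part and 27.9% in its deepest. The median mitochondrial share was 4.36% in FABP4 cells and 4.72% in zero cells. Cells above the 95th percentile of UMIs, where doublets would be sought, numbered 9 of the 144 FABP4 cells and 17 of the 410 zero cells. Their share was thus higher among FABP4 cells. Across the whole series 13 cell barcodes occurred in more than 1 library, and 2 FABP4 cells carried such a barcode.

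**Figure D2:**
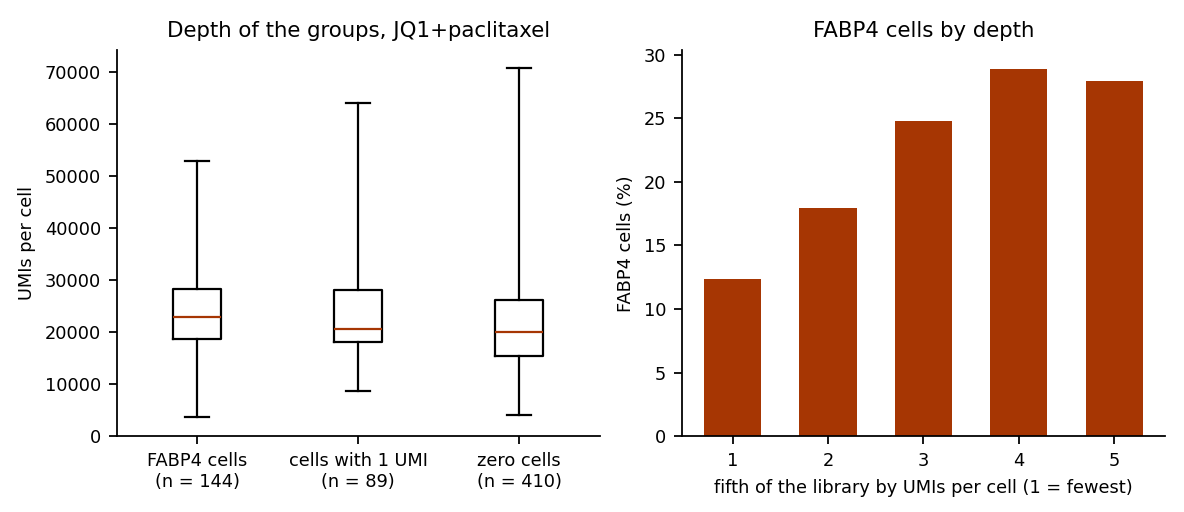
Left, UMIs per cell in the 3 groups of the JQ1+paclitaxel library (line, median; box, quartiles; whiskers, lowest and highest cell); right, percent of FABP4 cells in 5 equal parts of the library by UMIs per cell. The medians are 22852, 20701 and 20026 UMIs, and the share runs from 12.4% in the shallowest part to 27.9% in the deepest.

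ADIRF, PDK4, SAA1, APOC1 and AQP3 were each more than 4 times as high in FABP4 cells as in zero cells, and BEX1, KRT75 and SLC7A11 were among the lowest. UMIs were summed over the cells of each group, and a gene was compared when either group reached 20 CPM, which 4249 genes did. Some genes passed only through the group in which they were higher, and such genes are part of every count past 1.5-fold below. Among the largest ratios these were ADIRF, PDK4, AQP3, TSPAN13, GPM6B and NAMPT, under 20 CPM in zero cells, as was PPARG. Among the smallest they were BEX1, KRT75, RP11-554I8.2, SLC7A11, LINC01116, PLK2, TRIM16L, RP11-111M22.3, GNA15 and EDEM1, under 20 CPM in FABP4 cells. Of the 4249 genes, 106 (2.49%) were at least 1.5-fold higher in FABP4 cells and 139 (3.27%) at least 1.5-fold lower. The median gene had a log2 ratio of -0.025. Scaling by TMM factors in place of the total moved the counts to 130 higher and 108 lower. Thinned cells hold fewer UMIs and were grouped anew by the FABP4 UMIs left to them, with 99 FABP4 cells. They gave 271 higher and 327 lower. Ratios in thinned cells use these groups, so they do not compare the same cells at equal depth. Shares of thinned cells with a UMI of a gene keep the groups of the full count. With 1 library the counts past 1.5-fold are a description.

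The largest ratio was that of ADIRF (chr10:88728189-88743691), an adipogenesis regulatory factor, at 98.3 CPM in FABP4 cells and 8.09 in zero cells, a 12.1-fold difference (95% interval 9.38 to 15.9). PDK4 (chr7:95212811-95225828) followed at 22.4 against 2.17 CPM, 10.3-fold (6.2 to 18.1), on 77 and 19 UMIs. SAA1, a serum amyloid A apolipoprotein of the acute phase, stood at 165 against 20.4 CPM, 8.08-fold (6.82 to 9.62). A single cell held 18.2% of the SAA1 UMIs of the FABP4 group. With the 3% of cells richest in SAA1 left out of each group, the ratio was 19.1. SAA1 was found in 25.4% of thinned FABP4 cells and in 7.25% of thinned zero cells. Leaving out 3% thus takes a larger part of the SAA1 cells from the zero group, which by itself raises the ratio. SAA2, a near-identical neighbour whose reads can be confused with those of SAA1, had 31 and 10 UMIs.

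Apolipoprotein genes were next. APOC1 (chr19:45417504-45422606) was measured at 96.9 against 20.2 CPM, 4.80-fold (3.99 to 5.79). APOE, which neighbours APOC1 at chr19:45409048-45412650, was measured at 72.4 against 23.1 CPM, 3.13-fold (2.59 to 3.79). A single cell held 20.5% of the APOE UMIs of the FABP4 group. The ratio was 7.05 with the richest 3% of cells left out of each group. APOE was found in 26.1% of thinned FABP4 cells and in 8.03% of thinned zero cells, so this cut too raises the ratio by itself. Both transcripts encode small lipid-binding proteins of secreted lipoproteins.

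AQP3, a water and glycerol channel, was 4.26-fold higher (3.47 to 5.25) at 73.9 against 17.3 CPM. The others among the 12 largest ratios were TSPAN13, a tetraspanin (3.21), GPM6B, a membrane proteolipid (2.68), PLAC8 (2.60), MAOA, the monoamine oxidase (2.49), ASS1, argininosuccinate synthase (2.40), and NAMPT, the enzyme of NAD salvage (2.30). The intervals of all 12 stayed above 1.5. So did their ratios within parts of equal depth, and in thinned cells with groups set by the thinned FABP4 count.

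On the low side the smallest ratio was that of BEX1, a small brain-expressed X-linked protein. BEX1 stood at 6.98 CPM in FABP4 cells against 30.9 in zero cells, a ratio of 0.226 (0.142 to 0.343). Its UMIs sat in few cells. In thinned cells BEX1 was found in 4.35% of FABP4 cells (1.61 to 9.22) and 10.4% of zero cells (7.51 to 13.8). These intervals overlap, as do those of KRT75, found in 4.35% and 8.03%. KRT75, a type II keratin, had a ratio of 0.239, and SLC7A11, the cystine importer whose supply feeds glutathione, a ratio of 0.360 (0.227 to 0.550) at 7.27 against 20.2 CPM. PLK2, a stress-responsive polo-like kinase, had a ratio of 0.463, and MT1E, a metallothionein, 0.489 at 229 against 467 CPM. LINC01116, PCBP4, TRIM16L, GNA15, EDEM1 and the unnamed transcripts RP11-554I8.2 and RP11-111M22.3 completed the 12, between 0.293 and 0.492. In thinned cells all of the 12 but RP11-111M22.3 (0.765) stayed past 1.5-fold.

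**Figure D3:**
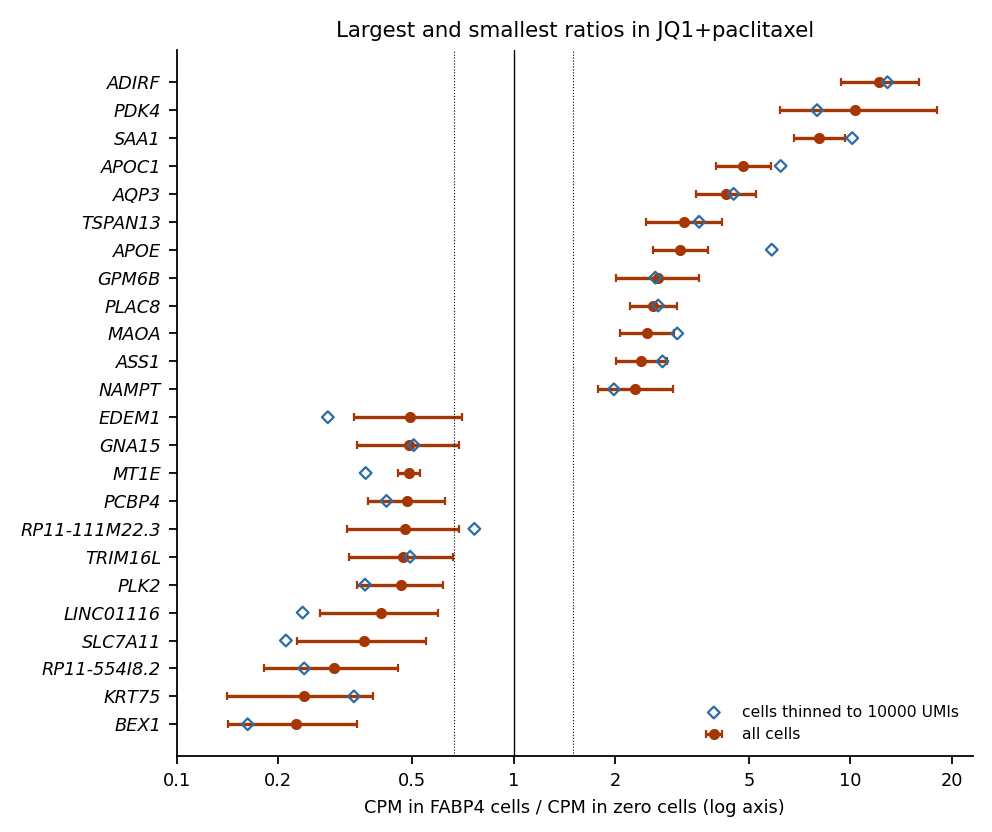
Ratio of CPM in FABP4 cells to CPM in zero cells of JQ1+paclitaxel (log axis) for the 12 genes with the largest and the 12 with the smallest ratio; bars are 95% counting intervals, diamonds the ratio in cells thinned to 10000 UMIs, dotted lines a 1.5-fold difference. Diamonds use groups set by the thinned FABP4 count. ADIRF lies at 12.1 and BEX1 at 0.226.

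Adipocyte genes other than FABP4 gave a mixed picture. Of the 14 markers on the list, ADIPOQ, CIDEA, LEP and THRSP were not analysed here. Summed over the other 10, they stood at 71.8 CPM in FABP4 cells and 22.7 in zero cells, 3.17-fold (2.62 to 3.84). Nearly all of this came from 5 genes. PPARG, the adipogenic nuclear receptor (chr3:12328867-12475855), was measured at 23.0 against 11.4 CPM, 2.02-fold (1.48 to 2.73), and was the only marker of these with 20 CPM. The remaining 4 are named here because the whole list is accounted for, after their values were seen. CIDEC, a fusion protein of lipid droplets, had 38 UMIs in the FABP4 cells and 9 in the zero cells, 10.8-fold per UMI of depth (5.12 to 25.3). PLIN4, a coat protein of the droplet, had 34 and 10 UMIs. LPL, the lipoprotein lipase, had 33 and 28 UMIs, and CFD, adipsin, 49 and 42.

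The markers that define the fat cell were at or near 0. PLIN1 had no UMI in either group and CEBPA had 0 and 1. LIPE, the hormone-sensitive lipase, had 2 and 9. GPD1 had 8 UMIs against 0, 75% of them in 1 cell, and AQP7 had 4 against 0. Any UMI of the list was found in 43.5% of thinned FABP4 cells and in 16.8% of thinned zero cells. FABP4 cells are therefore called by their rule here, and not as adipocytes.

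Markers of the other cell types that carry FABP4 were low. Of the 7 macrophage markers that could be read, CD14, CSF1R, MSR1 and FCER1G had 0 UMIs in the FABP4 cells. The sum was 18.3 against 11.2 CPM, nearly all of it CD68, a lysosomal protein also made outside macrophages. Of the 7 endothelial markers that could be read, KDR, TIE1, EMCN and ERG had 0 UMIs in FABP4 cells, and the sum was 2.62 against 2.74 CPM. The part of CD68 in any other difference was not tested. Within the FABP family FABP5 was the only other member at 20 CPM, at 501 against 311 CPM, 1.61-fold (1.52 to 1.71). FABP3 had no UMI, FABP6 had 2 and 12 UMIs, and CRABP2, which carries retinoic acid, had 9 and 8.

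PPAR target genes were mixed one by one and higher in sum, mostly through FABP5. Of the 29 in the table, 12 reached 20 CPM, 3 of them were past 1.5-fold on the high side (PDK4, AQP3 and FABP5) and none on the low side, beside 2.49% and 3.27% of all genes compared. PDK4 and AQP3 reached 20 CPM through the FABP4 cells only, with 2.17 and 17.3 CPM in zero cells. FABP5 reached it in both groups. The median log2 ratio was 0.08 against -0.025 for all genes compared. The sum stood at 1230 against 913 CPM, 1.35-fold (1.30 to 1.40), and over the classes of FABP4 count from 0 to 20 or more it was 913, 964, 1035, 1092, 1173 and 1546 CPM. FABP5 alone, at 501 against 311 CPM, was most of the difference between the groups. The FABP family without FABP4, nearly all of it FABP5, went from 313 to 645 CPM between the outer classes. Among enzymes of fatty acid oxidation HADHA had a ratio of 0.953 (0.804 to 1.12) and ACADM 1.15 (0.880 to 1.49), both with intervals that include 1, and ACADVL 1.39 (1.23 to 1.57). SCD, the stearoyl-CoA desaturase, had a ratio of 0.974. PLIN2, the most common droplet coat protein, had 0 UMIs against 1. Cholesterol synthesis (0 of 11 past 1.5-fold) and fatty acid synthesis (0 of 11) were likewise close to even, with summed ratios of 0.930 and 0.990.

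Of 14 glycolytic enzymes none was past 1.5-fold. Of these, 10 lay above 1 and 4 below, where 1992 of all 4249 genes compared lay above. The enzymes had a median log2 ratio of 0.20. Their sum stood at 21780 against 16934 CPM, 1.29-fold (1.27 to 1.30), and most of that difference was GAPDH, at 14387 against 10627 CPM. GAPDH had a ratio of 1.35, TPI1 stood at 1.31 and ENO1 at 1.23. Transcripts of the mitochondrial genome went the other way, at a summed ratio of 0.879 (0.874 to 0.884). Simple keratins were on the high side, with KRT8 at 481 against 303 CPM, 1.59-fold (1.49 to 1.69), and its partner KRT18 at 1.38-fold.

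Metallothioneins, which bind zinc and copper, were lower. Their sum was 7276 CPM in FABP4 cells and 11620 in zero cells, a ratio of 0.626 (0.617 to 0.635). MT2A, with 21503 and 89502 UMIs, had a ratio of 0.613, MT1E 0.489 and MT1X 0.834, and all 3 that reached 20 CPM lay under 1. Related metallothionein genes are close in sequence and can share reads.

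Genes of antigen presentation and of the interferon response lay on the low side. Of the 9 MHC class I genes compared, all had a ratio under 1 and 4 were past 1.5-fold, where 3.27% of all genes were lower by as much: PSMB8, an immunoproteasome subunit (0.565), HLA-B, which presents peptides (0.603), TAP1, the peptide transporter (0.623), and PSMB9, a further immunoproteasome subunit (0.647). Of the 4, TAP1 reached 20 CPM through the zero cells only, at 20.1 CPM against 12.5 in FABP4 cells. The median log2 ratio of the 9 was -0.34. Among all 4249 genes compared, 1992 lay above 1. Of the 8 interferon-stimulated genes compared all lay under 1, with a median log2 ratio of -0.48; the lists share PSMB8 and PSMB9.

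Genes of the oxidative stress response lay on both sides of 1. Of 15 compared, 10 had a ratio under 1 and 5 above, where 1992 of all 4249 genes compared lay above. The 15 had a median log2 ratio of -0.18. None was past 1.5-fold higher and 3 were lower by as much, beside 2.49% and 3.27% of all genes compared. HMOX1, heme oxygenase, had a ratio of 0.539 (0.464 to 0.624) at 64.6 against 120 CPM, AKR1C3 had 0.561 and SLC7A11 0.360, while TXN stood at 1.15 and AKR1B1 at 1.27. Inhibitors of the cell cycle and senescence genes had a summed ratio of 0.784. S-phase genes had a summed ratio of 1.01 (0.967 to 1.05) and G2/M genes 0.995 (0.975 to 1.02). Cancer-testis genes moved both ways, PAGE5 at 2.24 and MAGEA3 at 1.91 on the high side, and GTSF1 at 0.545 on the low side. MAGEA3 and MAGEA6 are near-identical copies whose reads can be confused.

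Differences between classes were larger at higher FABP4 counts. Median mitochondrial shares of the outer classes were 4.72% and 3.95%, and the part of this in the levels was not tested. Over classes of 0, 1, 2 to 4, 5 to 9, 10 to 19 and 20 or more FABP4 UMIs, ADIRF stood at 8.09, 15, 15, 63.2, 48.4 and 230 CPM. APOC1 stood at 20.2, 23.0, 23.9, 44.5, 157 and 177 CPM in the same order. FABP5 was higher at every step of these classes, from 311 to 642 CPM, and MT2A lower at every step, from 10203 to 4005 CPM. HLA-B went from 96.4 to 47.5 CPM. Cells with 1 UMI lay near the zero cells for APOC1 and FABP5, and cells with 2 to 4 UMIs were closer to the zero cells than to the cells with 20 or more for ADIRF, APOC1, FABP5 and MT2A.

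Some genes did not follow the FABP4 count in order. SAA1 stood at 20.4, 52.1, 35.4, 8.62, 271 and 348 CPM over the same classes. PPARG, at 11.4 CPM in zero cells, stood at 31.0 in the class of 10 to 19 and at 24.6 in the class of 20 or more, with overlapping intervals. CIDEC had 28 of its 38 UMIs in the 43 cells with 20 or more. MT1E, in thinned cells, had a UMI in 76.4% of zero cells and in 11.6% of cells with 20 or more FABP4 UMIs.

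**Figure D4:**
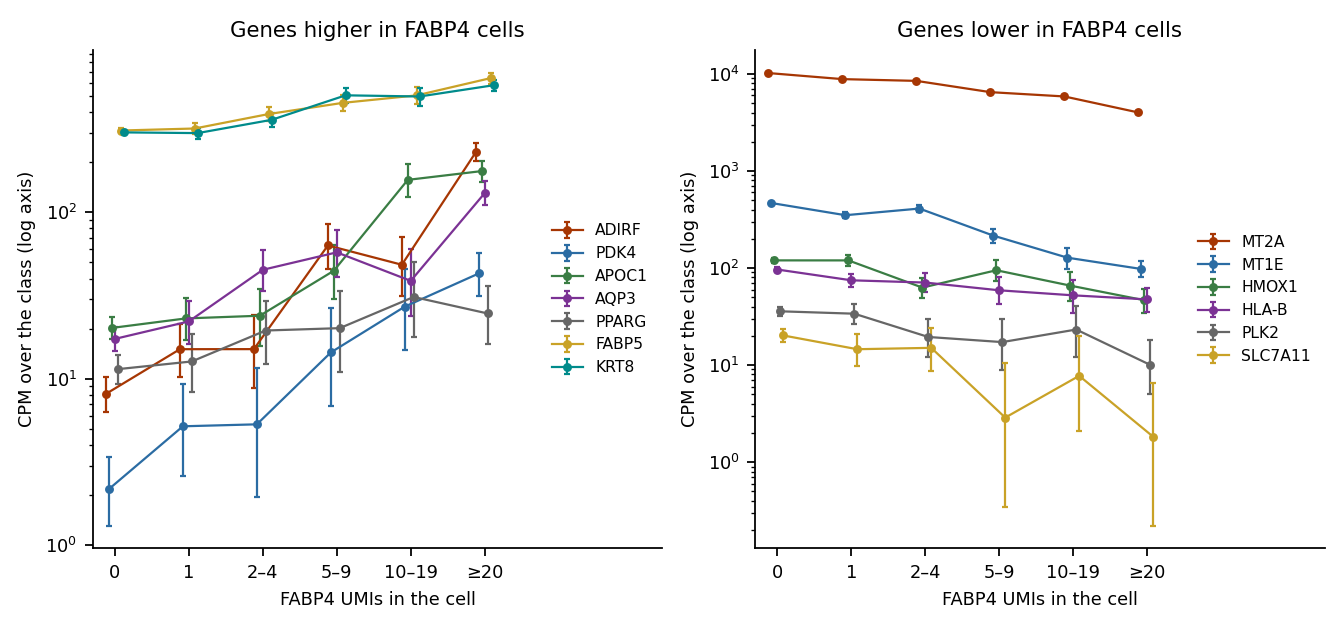
CPM summed over the cells of each FABP4 class (0, 1, 2–4, 5–9, 10–19 and ≥20 UMIs; 410, 89, 52, 28, 21 and 43 cells) on a log axis, with 95% counting intervals, for 7 genes higher and 6 genes lower in FABP4 cells. ADIRF goes from 8.09 to 230 CPM between the outer classes and MT2A from 10203 to 4005.

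The leading transcripts were spread unevenly over the FABP4 cells. Of the 7 genes with the largest ratios (ADIRF, PDK4, SAA1, APOC1, AQP3, TSPAN13 and APOE), thinned zero cells held a mean of 0.593 with a UMI, cells with 2 to 4 FABP4 UMIs 0.833, and cells with 20 or more 3.40. At least 3 of the 7 were found in 32 of 43 cells of the highest class (74.4%) and in 16 of 386 zero cells (4.15%). The 7 were chosen by their ratios in these same cells, so a contrast with zero cells follows from the choice. The counts only describe how these transcripts were spread. Yet 5 cells of the highest class held none of them.

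Within the 138 thinned FABP4 cells, APOE was found in 47.3% of cells with an APOC1 UMI and in 12% of cells without. AQP3 was found in 70% of the 20 cells with a PDK4 UMI and in 29.7% of the others. APOC1, however, was found in 30% of cells with PDK4 and in 41.5% of cells without, on 6 cells with both. These are values of cells of 1 library that differ in their FABP4 count, and no test was made.

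FABP4 cells also lay near each other when FABP4 was left out. Each of 611 thinned cells was given its 30 nearest neighbours from 2000 variable genes. FABP4 cells made up 22.6% of these cells, 42.7% of the neighbours of FABP4 cells, 19.5% of those of cells with 1 UMI and 16.2% of those of zero cells. The value was 59.7% for cells with 20 or more FABP4 UMIs and 28.2% for cells with 2 to 4. Without the genes past 1.5-fold it was 39.9% for FABP4 cells, and without the S-phase and G2/M genes 43.8%.

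Several of the leading transcripts were also those by which the whole JQ1+paclitaxel library stood apart from JQ1-A, JQ1 alone in the same experiment. SAA1 stood at 59.8 CPM in the JQ1+paclitaxel library and 2.90 in JQ1-A, APOE at 34.8 and 8.59, APOC1 at 39.0 and 10.4, and ADIRF at 30.8 and 12.8. Zero cells separated these genes. Zero cells of JQ1+paclitaxel had 20.4 CPM of SAA1 against 2.51 in zero cells of JQ1-A, and 23.1 CPM of APOE against 7.65. For ADIRF they stood at 8.09 against 12.7 CPM, lower than in JQ1-A. SAA1 was not low in every other library, at 65.5 CPM in pre-treatment and 257 in palbociclib, and APOC1 stood at 28.9 CPM in pre-treatment, 26.9 in DMSO and 27.1 in palbociclib. GTSF1, next to SAA1 in the size of the library ratio at 23.6 against 2.53 CPM, was lower in FABP4 cells than in zero cells (0.545). Each side is 1 library, and the FABP4 cells are part of the library total.

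The other libraries, which the rule did not use, gave a replicated comparison of FABP4 cells with zero cells. It rested on the 4 libraries with at least 10 FABP4 cells: JQ1-A (22 cells), JQ1-B (33), palbociclib (39) and JQ1+palbociclib (118). Counts were summed per library and group and fitted with edgeR, with the library as a term. Of 4260 genes tested, 69 (1.62%) were higher in FABP4 cells and 7 (0.164%) lower at an adjusted p under 0.05. FABP4 cells of these libraries were deeper than zero cells, most so in JQ1+palbociclib with medians of 27702 and 21493 UMIs. When each FABP4 cell was paired with a zero cell of like depth, 9 genes were called, all higher. Thinned cells gave 8 higher and 1 lower, over 3 libraries, since palbociclib then had fewer than 10 FABP4 cells. Without JQ1-A 2 genes were called (IL13RA2 and KRT7), without palbociclib 22, without JQ1+palbociclib 36 and without JQ1-B 201.

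FABP5 rose with FABP4 in these libraries. In FABP4 cells it stood at 571 CPM in JQ1-A, 430 in palbociclib, 499 in JQ1-B and 452 in JQ1+palbociclib, and in zero cells at 252, 241, 373 and 289 CPM. All 4 FABP4 groups were above all 4 zero groups. The log2 fold change was 0.72 ± 0.10 (SE, 4 libraries; edgeR adjusted p = 0.00079). With zero cells paired by depth it was 0.75 (adjusted p = 0.021), and without JQ1-A 0.58 (adjusted p = 0.060). The 1.61-fold ratio in JQ1+paclitaxel lay between the 1.34-fold of JQ1-B and the 2.26-fold of JQ1-A.

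KRT8 rose as well, by a log2 fold change of 0.60 ± 0.091 (edgeR adjusted p = 0.0017), with 482, 468, 512 and 414 CPM in FABP4 cells and 314, 345, 310 and 247 in zero cells of JQ1-A, palbociclib, JQ1-B and JQ1+palbociclib. It was called with cells paired by depth (adjusted p = 0.021) and in thinned cells (adjusted p = 0.0084), and missed the threshold without JQ1-A (adjusted p = 0.060). KRT7, another simple keratin, rose by 0.79 ± 0.086 on the log2 scale (edgeR adjusted p = 7.6e-05), and by 0.78 in thinned cells (adjusted p = 1.6e-06). With cells paired by depth it was 0.38 (adjusted p = 0.15), the only one of 12 alternatives under which KRT7 was not called. In JQ1+paclitaxel, KRT7 had a ratio of 1.14.

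IL13RA2, the decoy receptor of interleukin 13, had the largest rise, a log2 fold change of 1.5 ± 0.18 (edgeR adjusted p = 0.00020). It was called under all 9 alternatives that tested it, with cells paired by depth included (1.58, adjusted p = 0.0083). Thinned cells, the fit without palbociclib and DESeq2 gave no value for it, and palbociclib is the library with its highest levels. FABP4 cells held 22.7, 124, 29.4 and 15.1 CPM in JQ1-A, palbociclib, JQ1-B and JQ1+palbociclib, and zero cells 7.86, 55.4, 8.69 and 3.24. MMP1, the interstitial collagenase, rose by 1.48 ± 0.31, yet in JQ1-B it was lower in FABP4 cells, at 19.2 against 32.7 CPM, and it was not called with cells paired by depth, without JQ1-A, without palbociclib or by DESeq2. PSCA rose by 1.16 ± 0.23 and MGP, matrix Gla protein, by 0.88 ± 0.20. Neither was called with cells paired by depth or without JQ1-A.

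AQP3 was the only gene of the 12 with the largest ratios in JQ1+paclitaxel that was also called higher in the other libraries. Its log2 fold change was 0.97 ± 0.18 (edgeR adjusted p = 0.0067), at 68.1, 58.6, 64.5 and 20.8 CPM in FABP4 cells against 17.9, 35.7, 31.3 and 13.2 in zero cells of JQ1-A, palbociclib, JQ1-B and JQ1+palbociclib. With cells paired by depth it was 0.93 (adjusted p = 0.16), in thinned cells 0.86 (adjusted p = 0.40) and without JQ1-A 0.75 (adjusted p = 0.086). Among the 12 with the smallest ratios, SLC7A11 was called lower, with a log2 fold change of -0.66 ± 0.16 (edgeR adjusted p = 0.038). It lay lower in FABP4 cells of all 4 libraries, and was called under 5 of its 11 alternatives. The others among the 5 largest falls were GAS6 (-0.74), RXRA, a partner of the PPAR receptors (-0.63), DDX17 (-0.51) and ZFP36L2 (-0.43), none of which was called with cells paired by depth.

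Of the 12 genes with the largest ratios in JQ1+paclitaxel, 6 were tested in the other libraries and 6 were too low there. Besides AQP3, none of those tested was called: PLAC8 had a log2 fold change of 0.83 ± 0.33 (edgeR adjusted p = 0.21), MAOA 0.46 ± 0.14 (0.098), ASS1 0.35 ± 0.15 (0.22), NAMPT -0.22 ± 0.17 (0.50) and SAA1 -0.51 ± 0.25 (0.31). ADIRF had 5 UMIs in the FABP4 cells of JQ1-A, 5 in palbociclib, 10 in JQ1-B and 32 in JQ1+palbociclib, with ratios of 0.690, 0.689, 1.10 and 1.44, and all 4 intervals included 1. PDK4 had ratios of 6.11 in JQ1-A (2.60 to 12.9) on 9 UMIs, 3.95 in palbociclib (0.929 to 13) on 4, 1.05 in JQ1-B on 1 and 0.148 in JQ1+palbociclib on 1. APOE had ratios of 4.56 in JQ1-A, 6.12 in JQ1-B and 2.49 in JQ1+palbociclib, each with an interval above 1, and 0.938 in palbociclib. PPARG lay between 1.0 and 1.40 in the 4 libraries, with every interval including 1. SAA1 was 5.58-fold higher in FABP4 cells of JQ1-A on 8 UMIs, and lower in palbociclib at 188 against 262 CPM.

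**Figure D5:**
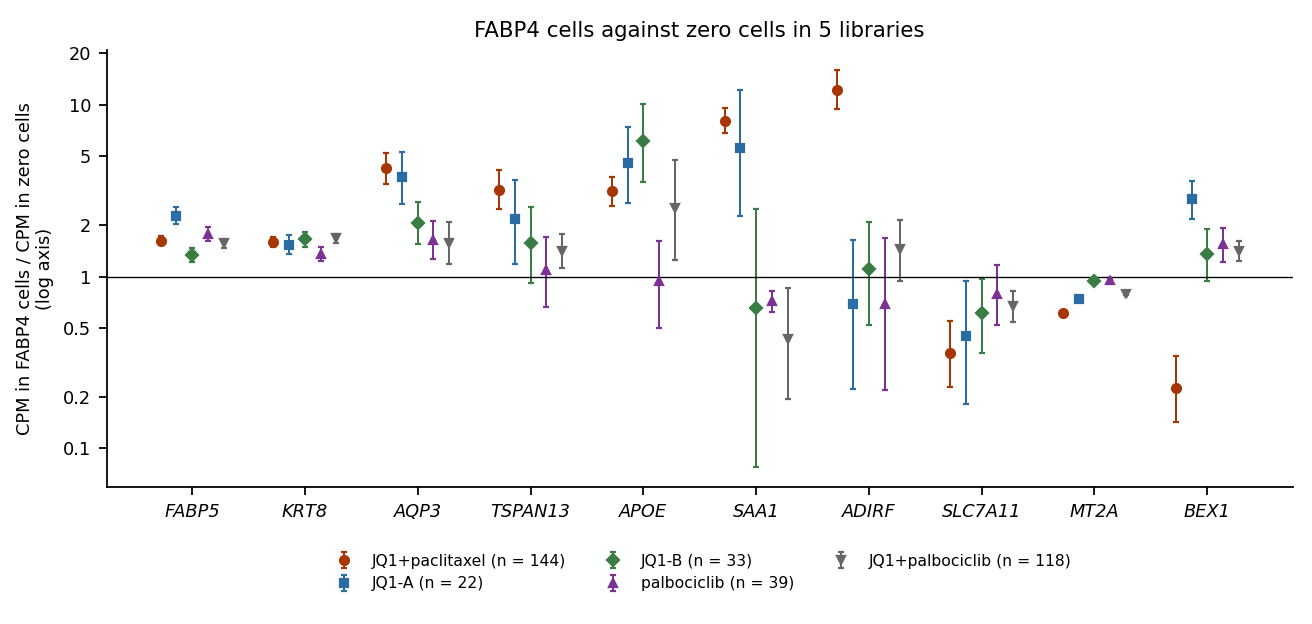
Ratio of CPM in FABP4 cells to CPM in zero cells (log axis) for 10 genes in JQ1+paclitaxel and the 4 other libraries with at least 10 FABP4 cells; n is the number of FABP4 cells and bars are 95% counting intervals. FABP5 and KRT8 lie above 1 in all 5 libraries, and ADIRF lies at 12.1 in JQ1+paclitaxel and between 0.689 and 1.44 elsewhere.

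Gene groups of the other libraries are set beside those of JQ1+paclitaxel without a test of the difference, and their counts are to be read against the 1.62% of all genes called higher and the 0.164% called lower. Of 9 MHC class I genes none was called, and 7 lay above 0 with a median log2 fold change of 0.13. The median over all genes tested was -0.0049. Of 8 interferon-stimulated genes, IFI27 (0.68) and BST2 (0.51) were called higher, and 7 lay above 0. Of the S100 family 5 of 8 tested were called higher, S100A4 among them at 0.61 ± 0.082, which had a ratio of 0.976 in JQ1+paclitaxel. S100A10 and S100A6 were not called with cells paired by depth (adjusted p = 0.051 and 0.11) or without JQ1-A (0.094 and 0.28). Of 10 PPAR targets AQP3 and FABP5 were called higher, and none lower. No metallothionein of 3 was called, and MT2A had counting ratios of 0.744 in JQ1-A, 0.956 in palbociclib, 0.942 in JQ1-B and 0.795 in JQ1+palbociclib. No gene of the S-phase (16 tested) or G2/M (32 tested) lists was called.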

How the data were processed

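The authors prepared the libraries with 10x Genomics 3′ chemistry; per the labels the processing used Cell Ranger, hg19 and Seurat. They deposited UMI counts of 18955 genes in 5738 cells, unfiltered by the study's limits (1 to 15% mitochondrial UMIs, 2000 genes), which 5575 cells passed. Libraries held 459 to 1024 cells and 10621159 to 24240835 UMIs, 14341832 of them in JQ1+paclitaxel, so precision is lowest for genes near 20 CPM. Cells, gene lists and the rule for named genes were chosen with earlier results of these data known.

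Counts were summed per group and scaled to CPM without FABP4. Ratios carry exact conditional binomial intervals, shares exact (Clopper-Pearson) ones, both at 95%. UMIs are molecules, and these intervals cover counting error only. Text names the 12 largest and 12 smallest ratios, the 5 largest called rises and falls elsewhere, up to 4 members of each of 34 lists, FABP family members, and genes setting the library apart from JQ1-A. A gene past 1.5-fold is described, not tested.

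In the other libraries edgeR 4.0.16 (R 4.3.3) with TMM and its quasi-likelihood test was used on genes averaging 20 CPM or more, with Benjamini-Hochberg adjustment over all of them, 3 residual degrees of freedom and an approximate SE. Each library pooled its cultures and drugs differ between libraries, so p-values measure only the spread between these 4 libraries. Tested on simulated counts of 4195 genes, this fit called 99% of genes changed by a log2 fold of 1 and 8 unchanged ones. The simulated libraries shared 1 mean profile and the same change. It therefore does not cover effects that differ between libraries. Alternatives were DESeq2 1.42.0, its size factors, no filter, depth pairing, thinning (seed 7), the study's filter, other FABP4 limits and leaving out each library. Some genes are not reported here. No doublet caller was run on this single line. Positions come from the GENCODE annotation lifted to GRCh37, which matched 129 of 137 named genes. Python 3 tools (numpy, scipy, scanpy, scikit-learn, matplotlib) did the rest.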

Additional observations from a re-analysis of the deposited data

Results flagged for a closer look

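BEX1 went opposite ways in different libraries. FABP4 cells had 0.226 times the level of zero cells in JQ1+paclitaxel (0.142 to 0.343), on 24 and 271 UMIs. A single cell held 20.8% of the BEX1 UMIs of the FABP4 group there. In thinned cells BEX1 was found in 4.35% of FABP4 cells and 10.4% of zero cells, with overlapping intervals. The ratio was 2.81 in JQ1-A (2.17 to 3.59), 1.54 in palbociclib, 1.36 in JQ1-B and 1.41 in JQ1+palbociclib. In those 4 libraries BEX1 was called higher (log2 fold change 0.69 ± 0.15, edgeR adjusted p = 0.019), but not with cells paired by depth (adjusted p = 0.53) or without JQ1-A (adjusted p = 0.20). The difference between JQ1+paclitaxel and the other libraries was not tested, as there is 1 JQ1+paclitaxel library. It was the only gene of the 24 with the largest or smallest ratios that lay on the opposite side in all 4.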

How the results depend on the processing

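The share of FABP4 cells in JQ1+paclitaxel was 22.1% both with the study's filter and without the deepest cells, 16.2% in thinned cells, 18.4% at a limit of 3 UMIs and 36.2% at a limit of 1. Of 4249 genes, 245 were past 1.5-fold; the number was 243 within parts of equal depth and 238 with TMM, but 598 in thinned cells, 373, 854 and 1056 at limits of 3, 10 and 20 UMIs, 141 for cells with 2 to 19 UMIs, and 34 when 100 CPM were required. The limits of 2 to 19 and of 20 UMIs, the comparison with cells of 0 or 1 UMI (230 genes), the omission of the richest 3% of cells and the fit over all 7 libraries were chosen after seeing the data. None of the 49 named genes past 1.5-fold changed side of 1 under the alternatives run. All 49 stayed within their interval within parts of equal depth and 31 in thinned cells. The neighbour share lay between 39.9% and 45.4%.

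In the other libraries 76 genes were called (729 at an unadjusted p under 0.05). The number was 80 with DESeq2's size factors, 99 with DESeq2, 81 with the study's filter, 106 over all 7 libraries, 137 without a filter on low values, 221 at a limit of 1 UMI, 9 with cells paired by depth, 9 in thinned cells, and between 2 and 201 with 1 library left out. Of the 22 called genes that are named, 5 were called with cells paired by depth, and none changed sign under any alternative. The FABP4 cells of JQ1-A held 572623 UMIs in all, the fewest of the 4 libraries, and levels there are the least precise.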
